A study of Mus musculus with 4 samples.

Results

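The Clca family (chloride channel accessory) was followed in the lungs of normal and ovalbumin (OVA)-induced mice with and without Rab44. Its 6 members in the deposited table of 41079 genes were taken by symbol, whatever their values: Clca1, Clca2, Clca3a1, Clca3a2, Clca4a and Clca4b. The family was chosen by the counts of Clca1 in these same libraries, so the values of Clca1 are given as a description, and the question put to the data was which of its paralogs had the same pattern. Clca3a1, the paralog with enough counts to compare, did not: in the OVA-induced lungs Clca1 was 437-fold lower in the Rab44-KO than in the WT library, Clca3a1 was 9.18-fold higher, and the 4 other members had between 0 and 8 counts in every library.

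The study asked how loss of Rab44, a large Rab GTPase of immune cells, alters OVA-induced allergic airway inflammation. RNA was sequenced in 4 lung libraries, 1 per condition: WT and Rab44-KO, each from normal and from OVA-induced mice. The Rab44-KO mice carried a CRISPR/Cas9-made knockout on a C57BL/6 background, with no restriction to a cell type named, and both genotypes were female littermates of 8 to 14 weeks. Induction consisted of 100 μg OVA and alum given into the peritoneum on days 0, 7 and 14, then of 100 μg OVA in 50 μL given through the nose for 4 days, and lungs were taken on day 21. Normal mice are labelled as untreated, while the protocol with the labels also mentions PBS, and the number of mice behind a library is not given in the sources used here. With 1 library per condition there are no replicates, so no test was made, no p-value is given, and each interval below covers counting error only.

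The libraries held 18112901 to 19910236 counts, and 24316 to 25003 genes had at least 1 count. Strings of 4 values below are in the order WT then Rab44-KO of the normal lungs, followed by WT then Rab44-KO of the OVA-induced lungs. Rab44 itself had 251, 1, 810 and 0 counts, which fits the genotype labels. Sftpc, the surfactant protein of alveolar type II cells, had 181126 to 361981 counts per library, which fits the labelled tissue. Comparisons are given as log2FC, the log2 ratio of CPM (counts scaled to library size, with TMM factors), with an exact 95% interval. A gene was taken as measured in a comparison if either library held 10 or more of its counts, and was counted as higher or lower if it differed by over 2-fold. Levels of different genes were compared by TPM, an abundance that allows for gene length. Where the counts or CPM of a gene are given as a share of those of other genes, the share is not a ratio of levels.

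CLCA proteins are not ion channels themselves. They are secreted or membrane-bound proteins with a zinc-dependent protease domain that cleaves its own chain, and CLCA1 raises the chloride current of the calcium-activated channel TMEM16A, the product of Ano1. In allergic airways, the type 2 cytokine IL-13 acts through STAT6 and the transcription factor SPDEF to turn airway epithelial cells into mucus-making goblet cells, and Clca1 (older name gob-5) is one of the best known genes of those cells. Mouse Clca3a1 (which earlier carried the symbol Clca1) is known from lymphatic endothelium, Clca2 from stratified and glandular epithelia, and the Clca4 genes from the intestine.

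The members lie in 1 cluster on chromosome 3 and all are transcribed from the minus strand. In GENCODE M21 on GRCm38, Clca3a1 (gene ID 12722) spans chr3:144729677-144760977, Clca3a2 (80797) chr3:144796559-144819494, Clca4b (99709) chr3:144910921-144932529, Clca4a (99663) chr3:144952480-144975045, Clca1 (23844) chr3:145003817-145032776 and Clca2 (229933) chr3:145070263-145099443. The principal transcript of each has 14 exons. The stretch of coding sequence around the zinc-binding site of the protease domain is shown for all 6 members because the motif in it is common to the family. It is 60 bases long, is written in the sense of the transcript across an exon junction, and has the 5 codons of the zinc-binding motif in capitals. In Clca1 its outer bases lie at chr3:145024576-145027298 and in Clca3a1 at chr3:144758011-144758410, with an intron between, on GRCm38.
Clca1: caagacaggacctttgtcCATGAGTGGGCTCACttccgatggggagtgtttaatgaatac
Clca3a1: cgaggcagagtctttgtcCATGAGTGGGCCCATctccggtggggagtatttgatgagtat
Clca3a2: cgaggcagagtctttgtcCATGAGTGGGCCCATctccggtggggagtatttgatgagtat
Clca4a: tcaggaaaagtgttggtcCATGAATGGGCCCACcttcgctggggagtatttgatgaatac
Clca4b: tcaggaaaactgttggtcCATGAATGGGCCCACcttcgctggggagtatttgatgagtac
Clca2: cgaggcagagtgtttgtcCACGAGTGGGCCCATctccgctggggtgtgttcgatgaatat

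In this stretch Clca1 differed from Clca3a1 at 13 of 60 bases, and Clca3a1 and Clca3a2 were identical. Over the whole coding sequence, Clca1 shared 61.9% to 67.3% of aligned bases with the other members. Clca3a1 and Clca3a2 shared 97.1%, with 79 differences in 2709 bases, and Clca4a and Clca4b shared 96.0%. No run of 150 bases, the read length, in the Clca1 or Clca2 transcript occurred in the transcript of another gene, while 3.41% of the runs in Clca3a1 and 3.34% of those in Clca3a2 did. The share was 10.7% in Clca4a and 0.667% in Clca4b. The genes that share them include some outside the member list, such as Gm34866 for Clca3a1 and Clca4c-ps for Clca4a. Clca3a1 and Clca3a2 are thus alike over their length, yet most runs of read length in either occur in no other gene. The 60 bases where they differ most are shown for this reason, with the 13 differences in capitals. These are coding bases 559 to 618, at chr3:144755271-144755330 in Clca3a1 and chr3:144813994-144814053 in Clca3a2, each within 1 exon on the minus strand.
Clca3a1: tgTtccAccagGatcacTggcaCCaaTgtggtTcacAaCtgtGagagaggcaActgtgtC
Clca3a2: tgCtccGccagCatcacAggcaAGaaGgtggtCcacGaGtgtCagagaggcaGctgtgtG

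Clca1, the secreted goblet cell protease, had 47 counts in the WT and 108 in the Rab44-KO lungs of normal mice, and 33407 in the WT and 77 in the Rab44-KO lungs after OVA induction. On the CPM scale these are 2.45 (1.80 to 3.26), 5.92 (4.85 to 7.14), 1725 (1706 to 1744) and 3.95 (3.12 to 4.94). One library out of 4 therefore stood far above the rest, and the OVA-induced Rab44-KO library lay between the normal ones. In the OVA-induced WT lungs Clca1 alone took 0.168% of all counts and was the 97th gene by TPM, at 1064 TPM. In the other 3 libraries it ranked between 13136th and 15541st, at 1.70 to 4.20 TPM.

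Clca3a1, the paralog known from lymphatic endothelium, had 63 counts in the WT and 92 in the Rab44-KO lungs of normal mice, and 46 in the WT and 425 in the Rab44-KO lungs after OVA induction. Its CPM were 3.28 (2.52 to 4.20), 5.04 (4.06 to 6.18), 2.38 (1.74 to 3.17) and 21.8 (19.8 to 24.0). Again 1 library stood apart, but it was the OVA-induced Rab44-KO library, and the lowest value was in the OVA-induced WT library where Clca1 was highest. By TPM Clca3a1 was a gene of low level throughout, at 1.46, 2.29, 0.938 and 10.8 TPM in the same order. At its highest it ranked 10187th.

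The other members were at or near 0. Clca2 had 4, 8, 4 and 1 counts, with the highest value in the normal Rab44-KO lungs and the lowest in Rab44-KO lungs after OVA induction. Between those libraries its log2FC was -2.94 (-8.57 to -0.20). Clca3a2, the near copy of Clca3a1, had 2, 4, 2 and 3 counts, so it stayed at this level in the library where Clca3a1 had 425. Clca4a and Clca4b had 0 counts in every library, which allows up to 0.154 to 0.164 CPM (3 counts). None of these 4 reached 10 counts in any library, so they were not counted as higher or lower. Their counts still bound the response to OVA in WT lungs, at a log2FC of at most 2.41 for Clca2 and 3.77 for Clca3a2, the upper ends of the intervals. Of the Clca rows outside the member list, Clca3b had 0, 3, 0 and 0 counts and the pseudogene Clca4c-ps had 0 in every library. Together the 6 rows other than Clca1 and Clca3a1 held 6 counts in the OVA-induced WT library, 0.0180% of the 33407 counts of Clca1 there.

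**Figure D1:**
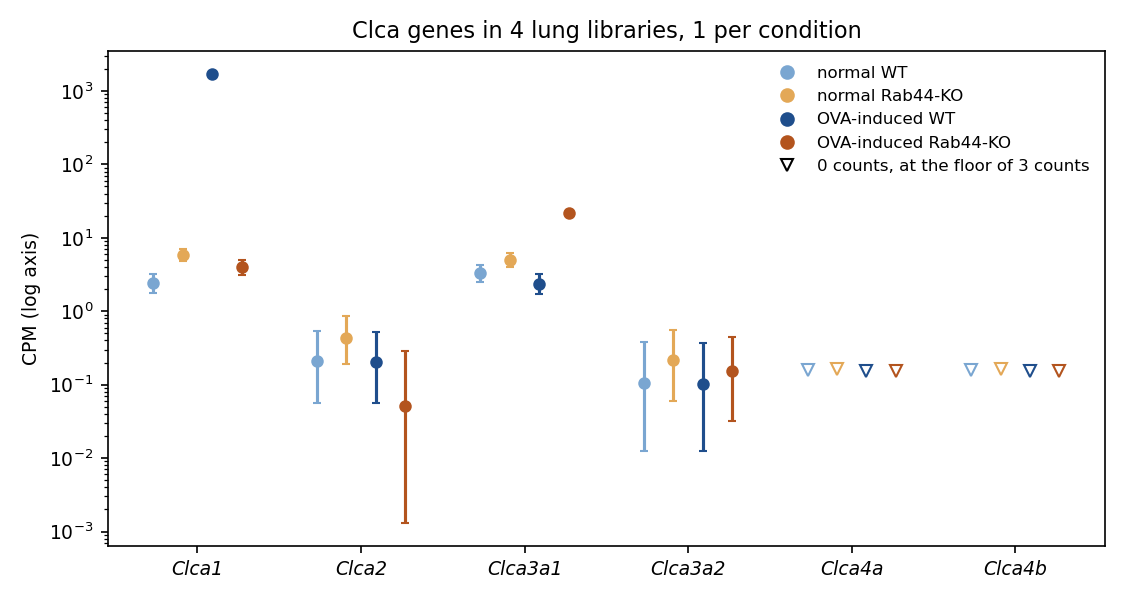
CPM on a log axis of the 6 Clca members in the 4 lung libraries, with exact 95% Poisson intervals, and open triangles at the 3-count floor where a library had 0 counts. Clca1 stands at 1725 CPM in OVA-induced WT and at 2.45 to 5.92 in the other 3 libraries, while Clca3a1 is highest, at 21.8, in OVA-induced Rab44-KO.

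The make-up of the family by TPM followed from this. Its members summed to 3.33, 6.83, 1065 and 14.0 TPM in the 4 libraries. Clca1 made up 51.3%, 61.5%, 99.9% and 21.9% of that sum, and Clca3a1 44.0%, 33.5%, 0.0880% and 77.3%. The ratio of Clca1 to Clca3a1 TPM was 1.17 and 1.83 in the normal lungs, 1135 in the WT and 0.283 in the Rab44-KO lungs after OVA induction. In normal WT lungs this ratio rests on 47 and 63 counts, and no interval was computed for it.

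The first comparison is of Rab44-KO with WT in normal lungs. Clca1 was 2.42-fold higher in the Rab44-KO library, a log2FC of 1.27 (0.77 to 1.80), and Clca3a1 1.54-fold higher, a log2FC of 0.62 (0.14 to 1.11). Of the 6 members, 2 passed the count minimum, 1 was over 2-fold higher and 0 were lower, where 2.77% of the 18718 genes measured were higher and 374 of them lower. These differences rest on 47 against 108 counts for Clca1 and 63 against 92 for Clca3a1. As a ratio of TPM with 1 added, the log2FC of Clca1 was 0.94, below 2-fold.

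In OVA-induced lungs the 2 genes lay on opposite sides. The log2FC of Clca1, Rab44-KO over WT, was -8.77 (-9.11 to -8.45), which is 437-fold lower (349 to 554). That of Clca3a1 was 3.19 (2.76 to 3.67), which is 9.18-fold higher (6.76 to 12.7). With 2 members passing, 1 was over 2-fold higher and 1 lower, where 8.40% of all genes measured were higher and 7.34% lower. Of the 19259 genes measured, Clca1 was the 5th from the lowest log2FC and Clca3a1 the 90th from the highest. Of the 13704 that reached 100 counts, which both members did only through the library where they were high, Clca1 was 3rd and Clca3a1 7th. On the TPM scale with 0.1 added, 77.0% of the genes past 2-fold in this comparison were higher, against 53.4% by CPM, and the median over all genes was 0.29 in place of -0.02. The log2FC of Clca3a1 lay far above either median.

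The OVA-induced over normal comparison in WT lungs gave a log2FC of 9.46 (9.05 to 9.91) for Clca1, 705-fold higher (530 to 959). It was the 11th highest of the 19023 genes measured. Clca3a1 had a log2FC of -0.47 (-1.05 to 0.11), an interval that includes 0. Here 1 of the 2 members that passed was over 2-fold higher and 0 were lower, beside 8.99% and 5.20% of all genes.

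In Rab44-KO lungs the same comparison gave a log2FC of -0.58 (-1.02 to -0.15) for Clca1, from 108 counts in normal to 77 in OVA-induced lungs. Clca3a1 had a log2FC of 2.11 (1.78 to 2.45), 4.32-fold higher (3.44 to 5.48), and was 341st from the highest of the 19073 genes measured. Again 1 of 2 members was over 2-fold higher and 0 were lower, beside 6.44% and 3.85% of all genes. By TPM with 0.1 added, 72.8% of the genes past 2-fold were higher, against 62.6% by CPM.

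The difference between the genotypes in the response to OVA, Rab44-KO minus WT on the log2 scale, was -10.04 (-10.73 to -9.42) for Clca1 and 2.58 (1.91 to 3.25) for Clca3a1. For Clca2 it was -3.08 (-8.87 to 0.97) and for Clca3a2 -0.50 (-4.95 to 4.00), from 1 to 8 counts. The interval of Clca2 includes neither the value of Clca1 nor that of Clca3a1, and that of Clca3a2 includes the value of Clca3a1 and not that of Clca1. The 4 comparisons share libraries, so they are not separate pieces of evidence: both large differences of Clca1 rest on the OVA-induced WT library, and both of Clca3a1 on the OVA-induced Rab44-KO library.

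**Figure D2:**
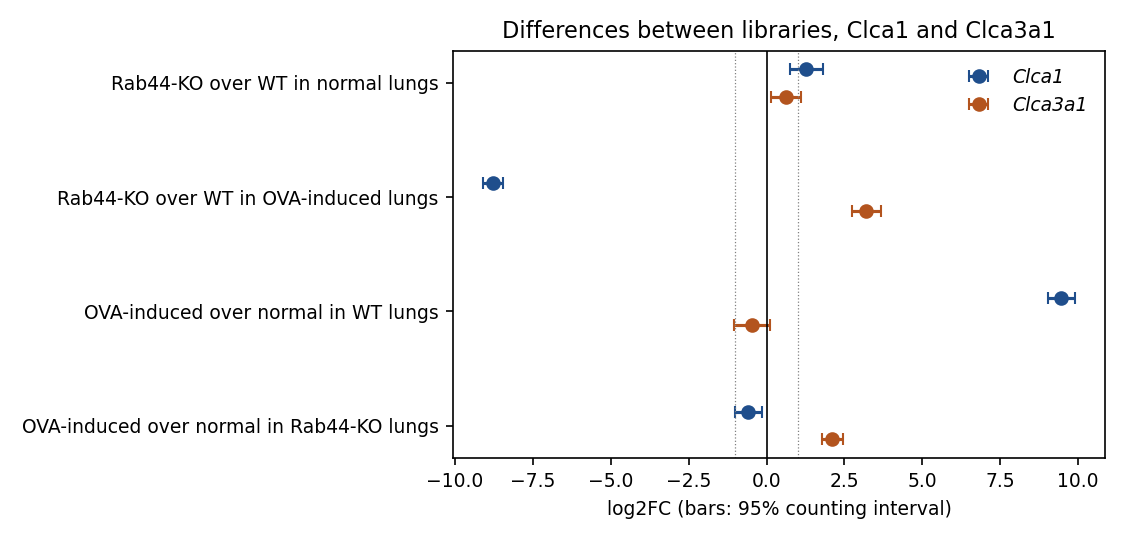
The log2FC of Clca1 and Clca3a1 in the 4 comparisons, with exact 95% counting intervals, a solid line at 0 and dotted lines at 2-fold. Rab44-KO over WT in OVA-induced lungs is -8.77 for Clca1 and 3.19 for Clca3a1, and OVA-induced over normal is 9.46 and -0.47 in WT but -0.58 and 2.11 in Rab44-KO lungs.

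None of the flanking genes compared differed between genotypes in OVA-induced lungs by as much as Clca1 or Clca3a1. Of the nearest genes with at least 10 counts on the side of Clca3a1, Sh3glb1, which shapes membranes, had 4075 and 4512 counts in OVA-induced WT and Rab44-KO lungs, a log2FC of 0.14. Selenof, a selenoprotein of the endoplasmic reticulum, had a log2FC of -0.73 (-0.78 to -0.68), and the predicted gene Gm46829 of 0.43, from 11 and 15 counts. Gm46829 was lower with OVA in both genotypes, at -2.35 in WT and -1.93 in Rab44-KO lungs. On the side of Clca2, Odf2l, a centriole protein, was at 0.49 and Znhit6, of ribonucleoprotein assembly, at -0.02. Col24a1, a fibrillar collagen, had 9 and 6 counts and was not compared. All 5 flanking genes compared were within 2-fold in OVA-induced lungs, beside 8.40% of all genes higher and 7.34% lower. That is too few genes to set them apart from all genes. Clca1 and Clca3a1, within the same cluster, were on opposite sides. The members between them, Clca3a2, Clca4b and Clca4a, had 0 to 4 counts.

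**Figure D3:**
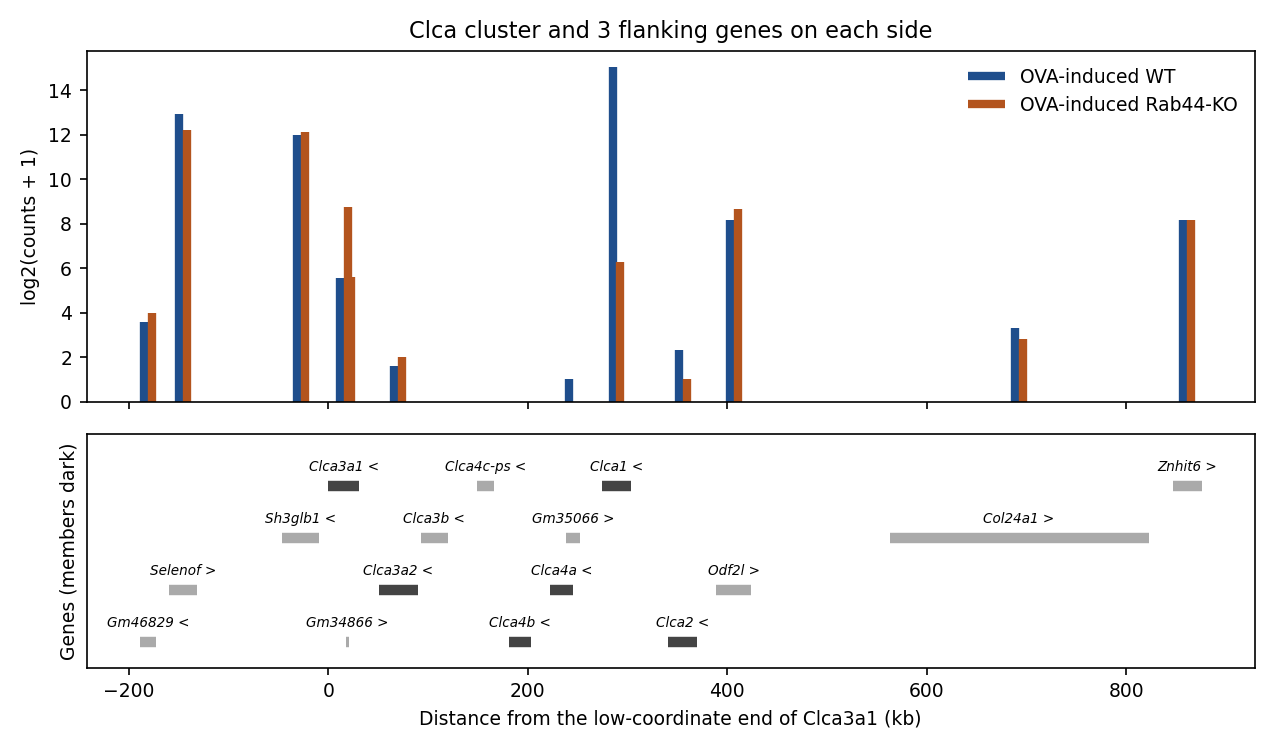
Above, counts in the WT and the Rab44-KO lungs after OVA induction as log2(counts + 1) at the middle of each gene. Below, the genes by distance in kb from the low-coordinate end of Clca3a1, members dark, arrows giving the strand: Clca1 is tall in WT only, Clca3a1 is taller in Rab44-KO, and the flanking genes have bars of like height.

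Gm34866, a predicted non-coding gene on the plus strand within Clca3a1, had 6, 7, 7 and 47 counts, the pattern of Clca3a1. Its log2FC in OVA-induced lungs, Rab44-KO over WT, was 2.72 (1.58 to 4.13), and its counts were 7.61% to 15.2% of those of Clca3a1. It shares 170 of its 515 exon bases with exons of Clca3a1. The kit marks strand, but the strand setting of the counting is not given in the sources used here, so reads of the 2 genes may not have been told apart.

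RefSeq promoter windows on GRCm38.p6 were examined for 3 members, Clca2, Clca3a1 and Clca4b. The 250 bases before the start of Clca3a1 are shown because it is the paralog that was high where Clca1 was not. They lie at chr3:144760978-144761227 on the minus strand, hold 48.8% GC, and are in lower case with nothing marked.
Clca3a1 upstream: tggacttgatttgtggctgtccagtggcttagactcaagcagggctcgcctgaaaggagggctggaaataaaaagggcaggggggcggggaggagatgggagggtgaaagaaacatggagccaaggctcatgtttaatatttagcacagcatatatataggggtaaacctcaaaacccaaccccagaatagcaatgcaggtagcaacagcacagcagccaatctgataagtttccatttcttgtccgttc

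Both strands of the 250-base windows were searched for the STAT6-type letters (TTC and GAA with 4 bases between), the STAT-type TTCNNNGAA, the FOX-type TGTTTAC and the TATA box TATAAA. These occur in 5.85%, 7.02%, 3.17% and 12.4% of 32851 such windows. Clca2 and Clca3a1 held none of the 4, and Clca4b held TATAAA at 2 places, both on the strand opposite to the gene. The Clca2 window, at chr3:145099107-145099356, lies within the gene span given above. This says only that these letters are not in these windows.

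The IL-4 and IL-13 pathway was described from a list of 28 genes. In OVA-induced lungs 24 passed the count minimum, of which 0 were over 2-fold higher and 14 lower in Rab44-KO, where 7.34% of all genes were lower, with a median log2FC of -1.51 beside -0.02 over all genes. In normal lungs 19 passed, with 0 higher and 0 lower and a median of 0.03, beside 2.77% of all genes higher and 374 of 18718 lower. With OVA induction, 16 of 25 were higher and 2 lower in WT lungs (median 1.48), beside 8.99% and 5.20% of all genes. In Rab44-KO lungs 1 of 19 was higher and 3 lower (median 0.13), beside 6.44% and 3.85%. Among the ligands, Il13 had 1, 0, 13 and 0 counts and Il4 6, 7, 17 and 6. Both were highest in OVA-induced WT lungs, on few counts. Il5, with 16, 19, 8 and 7 counts, and Tslp, an epithelial alarmin, with 128, 124, 55 and 56, were the 2 genes lower with OVA in WT lungs. The signal transducer Stat6 had 2870, 2552, 3310 and 3374 counts, and the receptor chain Il4ra 1866, 1974, 2581 and 3532, so neither was lower in the OVA-induced Rab44-KO than in the OVA-induced WT library. The other receptor and signalling genes of the list went both ways in that comparison. Il13ra2 was at -2.77, Il1rl1 at -1.03, Mapk13 at -0.65, Il2rg at -0.54 and Tyk2 at -0.12, while Il13ra1 was at 0.04 and Jak1 at 0.23. The alarmin Il33 was at -0.81.

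Of the goblet cell transcription factors, Spdef had 37, 36, 119 and 20 counts and Foxa3 had 2, 5, 32 and 4. Among the targets, Fcgbp, a mucus-bound protein that binds the Fc part of IgG, had 117, 102, 2978 and 179 counts and a log2FC of -4.06 (-4.29 to -3.85) in OVA-induced lungs. Muc5ac, the gel-forming mucin of goblet cells, had 43, 27, 649 and 41 counts and a log2FC of -3.99 (-4.49 to -3.54). Slc26a4 (pendrin), an epithelial anion exchanger, had 42, 53, 3426 and 260 counts and a log2FC of -3.73 (-3.92 to -3.55). Tff2, a mucus-stabilizing trefoil peptide, was at -3.40, and Agr2, needed for mucin folding, at -3.08. All of these were highest in OVA-induced WT lungs like Clca1, with differences of Rab44-KO over WT smaller than the -8.77 of Clca1.

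**Figure D4:**
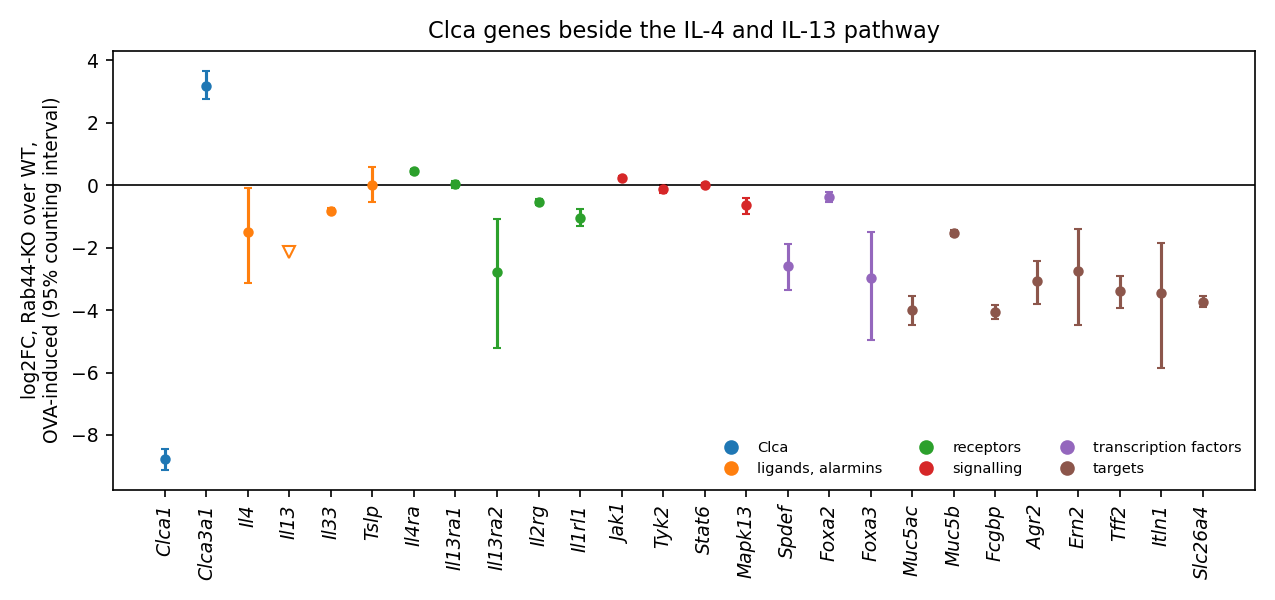
The log2FC of Rab44-KO over WT in OVA-induced lungs for Clca1, Clca3a1 and the 24 genes of the IL-4 and IL-13 list that passed the count minimum, by role, with 95% counting intervals. Clca1 at -8.77 is below all points shown and Clca3a1 at 3.19 above. The open triangle for Il13 (0 counts in Rab44-KO) is only the bound at 3 counts, so Clca1 and Il13 cannot be ordered.

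The chloride channels and transporters that CLCA proteins act beside were described from a list of 19 genes. In OVA-induced lungs 14 passed, with 0 over 2-fold higher and 1 lower in Rab44-KO, which was Slc26a4, and a median log2FC of 0.15. This share lower is near the 7.34% of all genes. Ano1, the channel that CLCA1 acts on, had 1700, 1852, 1532 and 1785 counts and a log2FC of 0.21 (0.11 to 0.31). Slc12a2, the basolateral carrier that loads epithelial cells with chloride, was at 0.49, Best3, a bestrophin channel, at 0.76, Slc26a9, an airway chloride channel, at 0.39, and Ano10 at -0.31.

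In whole lung, fewer cells of a type and less RNA per cell cannot be told apart, so the members were set beside markers of the cells they are known from. The 7 goblet markers all passed in OVA-induced lungs, and 6 were over 2-fold lower in Rab44-KO, where 7.34% of all genes were, with a median of -2.97. All of them but Bpifb1 are also in the IL-4 and IL-13 list, so this count repeats genes of that list. Foxa3 passed only through the OVA-induced WT library. Their CPM summed to 136, 172, 328 and 122, none of the 7 being at 0 in any library. Clca1 equalled 1.81%, 3.43%, 526% and 3.23% of that sum. The sum rests mainly on Muc5b, with 1072, 1082, 2753 and 962 counts, and Bpifb1, a secreted airway protein, which differed less than the list median in OVA-induced lungs, at -1.53 and -0.79. The 4 club cell markers summed to 25884, 26321, 18145 and 21013 CPM, with 0 of 4 past 2-fold, beside 8.40% of all genes higher and 7.34% lower, and log2FC from -0.30 for Scgb3a1 through 0.14 for Scgb1a1 and 0.62 for Scgb3a2 to 0.91 for Cyp2f2. The 5 ciliated cell markers summed to 681, 617, 540 and 575 CPM, with 0 of 5 past 2-fold, lists too short to set 0 apart from those shares, and ran from -0.35 for Tppp3 through Foxj1, Cfap43 and Dnah5 to 0.90 for Ccdc39. Of the 4 eosinophil markers 3 passed, and these 3, Ccr3 at -2.39, Prg2 at -1.95 and Siglecf at -1.23, were over 2-fold lower, beside 7.34% of all genes. The part of these cells in the level of Clca1 was not tested.

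For Clca3a1, the 7 markers of lymphatic endothelium summed to 666, 691, 465 and 693 CPM, none at 0. In OVA-induced lungs 2 of 7 were over 2-fold higher in Rab44-KO: Lyve1, the hyaluronan receptor of lymphatic vessels, with 3122 and 7637 counts, a log2FC of 1.28, and Prox1, the transcription factor of lymphatic fate, with 56 and 129 counts, a log2FC of 1.19. Ccl21a, the chemokine of lymphatic vessels, was at -0.62 and Pdpn, also made by alveolar type I cells, at -0.43. The median was 0.97, and 8.40% of all genes were over 2-fold higher here. The summed markers were 1.49-fold higher while Clca3a1 was 9.18-fold higher. Against normal Rab44-KO lungs, where the sum was 691 CPM, Clca3a1 was 4.32-fold higher.

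Sums of other marker lists differed between the same libraries in both directions. The 4 alveolar markers summed to 18713, 18083, 23862 and 13364 CPM, with a median log2FC of -0.48 and 1 of 4, Sftpc, over 2-fold lower in OVA-induced Rab44-KO lungs, beside 7.34% of all genes. Ager was at -0.72, Hopx at -0.25 and Sftpb at -0.19. The 4 smooth muscle markers ran from -0.44 for Acta2 through Cnn1 and Des to 0.18 for Myh11. The 8 blood endothelium markers summed to 3140, 3128, 2346 and 3295 CPM, with 1 of 8, Vwf, over 2-fold higher in OVA-induced lungs, a share near the 8.40% of all genes, and a median of 0.37. The 5 heart muscle markers summed to 665, 723, 303 and 673 CPM, with 2 of 5 over 2-fold higher and a median of 0.72. The sums of the lymphatic, blood endothelial and heart lists were lowest in the OVA-induced WT library, with the 3 others close together. Single members varied within their lists in log2FC, Rab44-KO over WT after OVA induction. Among the lymphatic genes Reln was at 0.98, with 251, 257, 296 and 586 counts, Mmrn1 at 0.97 and Flt4 at 0.71. Among the blood genes Vwf had 8747, 9946, 8130 and 16385 counts, Ednrb was at 0.83, Cdh5 at 0.69 and Kdr at 0.63, while Car4, of alveolar capillaries, was at -0.70 and lowest in OVA-induced Rab44-KO lungs. Among the heart genes Myh6 was at 1.79, Tnnt2 at 1.64, Tnni3 at 0.72 and Myl7 at 0.60, while Actc1 was at -0.22 and also lowest there. The part of endothelial or heart tissue in the level of Clca3a1 was not tested.

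**Figure D5:**
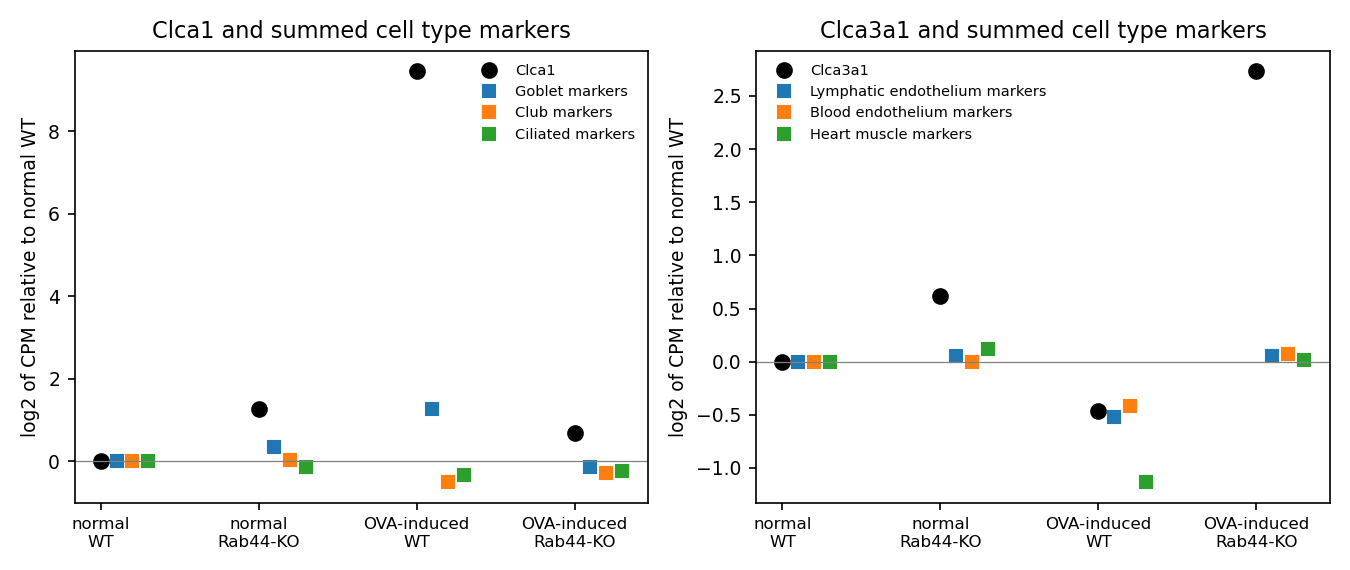
The log2 of CPM relative to the normal WT library for Clca1 beside summed goblet, club and ciliated markers, and for Clca3a1 beside summed lymphatic endothelium, blood endothelium and heart muscle markers. Clca1 and the goblet sum are both highest in OVA-induced WT, and Clca3a1 in OVA-induced Rab44-KO lies above marker sums that are at the level of normal WT.

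Markers were also summed for tissues from which some of the members at or near 0 are known. The 6 markers of squamous epithelium summed to 3.67 to 4.77 CPM, with Krt6a and Sprr3 at 0 in every library. The 5 intestinal markers summed to 0.781 to 2.01 CPM, with Cdx2, the intestinal master transcription factor, and Alpi at 0. Basal cell markers summed to 2.92 to 7.56 CPM. The squamous sum rests mainly on Krt10. Only Vil1 of the intestinal markers passed the count minimum, with 14, 18, 38 and 22 counts. The part of these tissues in the levels of Clca2 and the Clca4 genes was not tested.

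The genes with the pattern most like each member were found among 13899 genes that reached 100 counts in a library, by Euclidean distance of log2 CPM centred over the 4 libraries. For Clca1 they were Mrgprg (0, 0, 115 and 0 counts, distance 1.26), a Mas-related receptor gene, and the immunoglobulin kappa variable genes Igkv2-137 (7, 14, 2249 and 18, distance 1.29), Igkv4-58, Igkv3-1 and Igkv4-61, at distances up to 2.58. All have 1 high library, OVA-induced WT, which follows from their selection by likeness to Clca1. The distance of a gene at 0 counts depends on the prior count. For Clca3a1 they were LOC102631979 (30, 43, 24 and 145 counts, distance 0.465), Gm41846 (18, 22, 8 and 104, distance 0.510), Gdpd2 (127, 147, 147 and 745, distance 0.767), a glycerophosphodiester phosphodiesterase gene, Gm57766 and Fam124b, at up to 0.815. Both lists depended on the setting: by correlation in place of distance, 0 of the 5 genes were shared for Clca1 and 0 of 5 for Clca3a1. No other Clca member could be ranked, since none had 100 counts.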

How the data were processed

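Lung RNA of 4 libraries was sequenced by the authors as 150-base paired-end reads from a directional kit, trimmed, aligned to GRCm38 with HISAT2 and counted per gene with featureCounts. Tool versions, and how strand and reads with several matches were handled, are not given in the sources used here. The authors deposited raw counts and, beside them, TPM. The study names DESeq2 for differential expression. Gene positions in the deposited table are not those of GRCm38 (0 of 16 rows at the Clca cluster share the RefSeq start), so positions were taken from GENCODE M21 and RefSeq. The window upstream of Clca3a2 is not reported here.

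From the counts, TMM factors (0.973 to 1.02) over the 4 libraries were computed with edgeR 4.0.16 in R 4.3.3. The log2FC used a prior count of 0.125. Ratios have exact 95% Clopper-Pearson intervals, CPM exact Poisson intervals, and differences of response exact conditional intervals of the odds ratio. For a 0 count the floor was 3 counts in that library. Intervals and floors cover counting error only. Other steps used Python 3.11.15, numpy 2.4.6, pandas 2.3.3, scipy 1.17.1, Biopython 1.88 and matplotlib 3.10.9, and were tested on simulated counts.

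The members and lists were chosen with earlier results of these data known. The naming rule took all members, other Clca rows, 3 flanking genes with at least 10 counts on each side, Rab44, from each list the 5 genes most different in either direction in OVA-induced lungs among those that reached 100 counts, list genes used to check a cell type, and the 5 nearest patterns. Gm34866, Il4, Il5, Il13, Tslp, Il4ra, Stat6, Foxa3, Ano1, Bpifb1, Ccl21a and Pdpn were named after their values were seen. So were Il33, Il13ra1, Il13ra2, Il2rg, Il1rl1, Jak1, Tyk2, Mapk13, Ern2, Itln1, Krt10 and Vil1. Alternatives were DESeq2 1.42.0 size factors, total counts, TMM on the compared pair, a prior count of 2, TPM with 0.1 or 1 added, count minimums of 1 and 50, other measures of pattern and, chosen after seeing the data, removal of a length trend in windows of 501 genes.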

Additional observations from a re-analysis of the deposited data

Results flagged for a closer look

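Clca1 lay on opposite sides in the genotype comparison of the 2 conditions. Its log2FC, Rab44-KO over WT, was 1.27 in normal and -8.77 in OVA-induced lungs, a difference of -10.04. The same 4 counts give opposite signs for its OVA response, 9.46 in WT mice but -0.58 in Rab44-KO mice, and the same difference of -10.04. With 1 library per condition the difference was not tested.

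Clca3a1 also had opposite signs in its OVA response, -0.47 in WT mice but 2.11 in Rab44-KO mice, a difference of 2.58. In WT the counting interval included 0, and the difference was not tested.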

How the results depend on the processing

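Of 68 alternative values of the log2FC of Clca1 and Clca3a1 and of their differences of response, 0 changed sign, and 63 stayed within the counting interval of the reported value. The 5 others are ratios of TPM, and the cause was not tested. With 0.1 added, Clca1 in OVA-induced lungs was -8.40, and with 1 added it was -8.04. With 1 added, Clca3a1 in OVA-induced lungs was 2.61, the OVA response of Clca1 in WT was 8.62 and its difference of response -8.98. Clca3a1 in OVA-induced lungs ranged from 2.61 to 3.39 over its 7 alternatives.

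Counts of genes past 2-fold moved more. With minimums of 1 and 50 counts in place of 10, Rab44-KO over WT had 3068 and 75 higher and 2521 and 26 lower genes in normal lungs (519 and 374 as reported), and 4404 and 754 higher and 3552 and 791 lower in OVA-induced lungs (1617 and 1413). OVA-induced over normal had 4219 and 989 higher and 3325 and 361 lower in WT (1710 and 989), and 3937 and 478 higher and 3136 and 285 lower in Rab44-KO lungs (1229 and 734). By TPM with 0.1 added, OVA-induced lungs had 2602 higher and 777 lower genes in Rab44-KO, and the OVA response in Rab44-KO lungs had 481 lower. With 1 added, genotype comparisons had 110 higher and 78 lower genes in normal and 1234 and 405 in OVA-induced lungs, and OVA responses 729 and 389 in WT and 612 and 181 in Rab44-KO lungs. With 0.1 added, the median over all genes lay at 0.29 in the genotype comparison of OVA-induced lungs, -0.16 in the OVA response of WT and 0.11 in that of Rab44-KO lungs; the cause was not tested. A minimum of 1 count would add Clca2 and Clca3a2 as higher in normal Rab44-KO lungs, and Clca2 as lower in both comparisons of the OVA-induced Rab44-KO library, on 1 to 8 counts. Nearest patterns were unstable: for Clca1, 0 of 5 genes were shared by correlation, 1 with at least 1000 counts and 3 with a prior count of 2, and for Clca3a1 0 and 5 by the first and last of these.

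No paired analysis was possible because each condition has 1 library, and for the same reason none was left out in turn. For the 4 members under 10 counts the depth gives wide intervals only.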
